A study of Mus musculus with 6 samples.

Results

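Genes for the proteins that carry out and steer pre-mRNA splicing were followed across mouse bone marrow cells carrying a retroviral vector for MN1VP16 or MN1, and across Gr1-positive, CD11b-positive marrow cells. The set held every gene with its own probe set whose symbol begins with Snrp, Sf3a, Sf3b, Hnrnp, or Srsf and a digit, 47 of 18193 genes measured. Of these, 9 encode proteins of small nuclear ribonucleoproteins (snRNPs), 9 belong to the SF3A and SF3B complexes, 10 are SR proteins and 19 are heterogeneous nuclear ribonucleoproteins (hnRNPs). Srsf7 and Snrpd1, which the rule would take, had no probe set of their own and have no value.

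The MN1VP16 group (n = 2 arrays) and the MN1 group (n = 2) were GFP-positive marrow cells with the vector pSF91-MN1VP16-IRES-GFP or pSF91-MN1-IRES-GFP, a gammaretroviral vector that ties GFP to the inserted gene. The labels give C57BL/6J donors treated with 5-fluorouracil at 150 mg/kg for 4 days. Their marrow was kept for 48 hours with IL6, IL3 and stem cell factor, transduced, and transplanted into lethally irradiated syngeneic mice, and the GFP-positive cells were sorted after 4 weeks. The Gr1Mac group (n = 2) was marrow sorted on Gr1 and CD11b, surface proteins of granulocytes and monocytes, from C57BL6 mice; the labels say neither whether this marrow was transplanted nor how many mice each group had. MN1 acts with other factors to regulate transcription and drives myeloid leukaemia when overexpressed in mouse marrow, and VP16 is the name of a viral activator. Values are the authors' log2 RMA expression values per probe set, with 1 probe set for each gene.

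Splicing removes introns in several steps. The U1 and U2 snRNPs, each an RNA with a ring of Sm proteins and a few proteins of its own, mark the start and the branch point of an intron, and SF3A and SF3B hold U2 at the branch point. SR proteins bind exons and mostly favour their inclusion, while hnRNPs coat nascent RNA and often oppose it. Mutations of SF3B1 and SRSF2 are well known in human myelodysplastic disease.

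Upstream DNA is shown for 5 of the 6 genes that were higher in both transduced groups than in Gr1Mac, because these genes moved together, and for Sf3b6, the gene called in no comparison with the smallest MN1 difference among those read above background with a window outside the annotated gene. Each sequence is the 250 bases before the RefSeq start of the gene (GRCm38.p6), read in the direction of transcription, and the capitals mark every match on either strand to 5 motifs. These were the E-box with letters CACGTG, the CCAAT box by its own name, the ETS motif as the word CCGGAAG, the cyclic AMP response element as TGACGTCA, and the GC box searched as GGGCGG. Hnrnpa1, the remaining one of the 6, is not shown because its window runs into the annotated gene, and for Hnrnpr the first of 2 starts is shown.
Snrpf (chr10:93589659-93589908, minus strand): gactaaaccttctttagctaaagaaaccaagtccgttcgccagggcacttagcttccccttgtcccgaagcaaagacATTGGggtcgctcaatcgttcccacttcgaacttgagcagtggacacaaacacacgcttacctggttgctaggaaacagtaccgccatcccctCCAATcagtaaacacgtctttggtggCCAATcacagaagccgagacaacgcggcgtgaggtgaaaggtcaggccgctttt
Snrpg (chr6:86371290-86371539, plus strand): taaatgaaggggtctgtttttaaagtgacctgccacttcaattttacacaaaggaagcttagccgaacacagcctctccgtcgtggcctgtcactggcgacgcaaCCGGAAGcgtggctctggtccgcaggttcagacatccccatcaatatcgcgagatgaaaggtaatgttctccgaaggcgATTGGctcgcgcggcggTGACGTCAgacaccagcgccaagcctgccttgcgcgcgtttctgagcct
Snrpa1 (chr7:66060086-66060335, plus strand): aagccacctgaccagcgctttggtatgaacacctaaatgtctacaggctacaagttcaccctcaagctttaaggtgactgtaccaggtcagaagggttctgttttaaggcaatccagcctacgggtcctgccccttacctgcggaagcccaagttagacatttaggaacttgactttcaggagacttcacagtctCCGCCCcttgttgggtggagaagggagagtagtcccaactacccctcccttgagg
Srsf3 (chr17:29032410-29032659, plus strand): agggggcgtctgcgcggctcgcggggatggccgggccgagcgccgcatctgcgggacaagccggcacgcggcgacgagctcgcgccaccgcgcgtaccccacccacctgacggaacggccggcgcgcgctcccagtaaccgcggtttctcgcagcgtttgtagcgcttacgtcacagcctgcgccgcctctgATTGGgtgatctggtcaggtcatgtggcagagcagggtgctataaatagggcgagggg
Hnrnpr (chr4:136310692-136310941, plus strand): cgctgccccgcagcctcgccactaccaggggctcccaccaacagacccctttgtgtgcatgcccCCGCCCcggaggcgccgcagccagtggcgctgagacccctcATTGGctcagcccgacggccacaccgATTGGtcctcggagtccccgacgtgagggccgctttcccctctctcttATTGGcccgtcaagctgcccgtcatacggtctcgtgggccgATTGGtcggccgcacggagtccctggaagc
Sf3b6 (chr12:4817358-4817607, plus strand): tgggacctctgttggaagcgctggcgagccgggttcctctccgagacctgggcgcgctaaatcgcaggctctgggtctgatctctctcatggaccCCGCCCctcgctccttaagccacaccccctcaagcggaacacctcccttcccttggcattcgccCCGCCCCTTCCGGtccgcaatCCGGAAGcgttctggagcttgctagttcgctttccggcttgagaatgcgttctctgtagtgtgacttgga
CCAAT or its reverse ATTGG occurred 3 times before Snrpf, 4 times before Hnrnpr and 1 time each before Snrpg and Srsf3, while Snrpa1 held only a GC box and Sf3b6 held 2 GC boxes and 2 ETS motifs. In Sf3b6 a GC box on the reverse strand directly adjoins an ETS motif, so that their capitals run together with no base shared. RefSeq windows were matched for 42 of the 47 genes, giving 58 windows. CCAAT was found in 44.8% of them against 33.8% of all 32851 windows of the table, the GC box in 65.5% against 32.7%, the ETS motif in 31.0% against 6.91%, the E-box in 3.45% against 6.02%, and the cyclic AMP response element in 1.72% against 1.55%. CCAAT was in 52.6% of the 38 windows of genes called higher in MN1 and in 30.0% of the 20 windows of the other splicing genes, while the ETS motif was in 26.3% and 40%. These matches describe letters in a window and are not binding sites.

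Features of the whole array set bear on every comparison below. Progenitor markers averaged 9.05 and 9.98 log2 units on the MN1VP16 arrays and 10.88 to 11.06 on the MN1 arrays, against 5.81 to 6.02 on the Gr1Mac arrays, with 3 of 6 called higher in MN1VP16, 6 of 6 higher in MN1, and 4 of 6 under the background guide of 5.84 in Gr1Mac. That guide is the highest reading of Xist on the arrays high in Y-linked genes, chosen after the values were seen. Itgam, which encodes CD11b, read 9.44 and 8.88 in MN1VP16 and 7.67 and 6.95 in MN1, against 10.95 and 10.92 in Gr1Mac, while Ly6g, Ly6c1 and Ly6c2, the genes of the Gr1 antigens, had no probe set of their own. Myeloid markers averaged 13.52 to 13.67 in MN1VP16 and 12.01 to 12.85 in MN1, against 13.58 to 13.83 in Gr1Mac, with 1 of 9 lower in MN1VP16 and 4 in MN1. Erythroid markers averaged 7.46 to 8.41 in MN1VP16 and 9.75 to 10.26 in MN1, against 6.61 to 6.76 in Gr1Mac, with 2 of 5 higher in MN1VP16 and 3 in MN1. Proliferation genes averaged 11.39 to 11.99 in MN1VP16 and 11.93 to 12.01 in MN1, against 11.21 to 11.35 in Gr1Mac; of these 5, Mcm2 was higher in both groups and Pcna in MN1. Of 5 B cell and 3 T and NK cell markers 0 were higher in either group, while Ms4a1 was lower in MN1 and Cd3d in both. Between the transduced groups, the markers Itgam, Csf1r and Cd79a were called higher in MN1VP16 than in MN1. Kit, Klf1, Car1 and Epor were called lower in MN1VP16. The part of these cell type differences in the results below was not tested. Y-linked genes were bright on both MN1VP16 arrays and on Gr1Mac array 2, whereas Xist was bright on both MN1 arrays and on Gr1Mac array 1. Control rows labelled BioC, BioDn and CreX were brighter on both MN1 arrays and MN1VP16 array 1 (10.93 to 11.29) than on MN1VP16 array 2 and both Gr1Mac arrays (9.08 to 9.69); other control rows went against their names, since those named for beta-actin read at most 3.77 while the ordinary Actb probe set read at least 13.94. The probe set for Mn1 read 3.63 to 4.92 on all 6 arrays and was called in no comparison, and since the ends of the inserted sequence are not given it does not check the labels. Within one group arrays correlated at 0.98 to 0.99 across probe sets, as a description over genes.

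Most splicing genes were higher in the MN1 cells than in Gr1Mac cells. Limma called 28 of the 47 higher and 0 lower at an adjusted p under 0.05, or 59.6% higher against 17.3% of all genes, while 12% of all genes were lower. In MN1VP16, 6 of the 47 were higher and 0 lower than in Gr1Mac, or 12.8% against 3.66% of all genes, with 2.11% of all genes lower. The 6 were Snrpf, Snrpg, Snrpa1, Srsf3, Hnrnpa1 and Hnrnpr, and all of them were also among the 28. At an unadjusted p under 0.05, limma had 22 higher and 0 lower in MN1VP16 (13.4% and 10.3% of all genes), and 31 higher and 1 lower in MN1 (22.1% and 17.7% of all genes).

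The median difference of the 47 genes was 0.48 log2 units for MN1VP16 minus Gr1Mac, where the median of all genes was 0, and 0.83 for MN1 minus Gr1Mac, where it was -0.06. Both MN1VP16 arrays lay above both Gr1Mac arrays for 30 of the 47 genes (24.8% of all genes did so) and below them for 2 (25.2%). Both MN1 arrays lay above both Gr1Mac arrays for 38 genes (30.9% of all genes) and below them for 5 (35.8%). The mean of the 47 genes was 10.82 and 10.90 on the MN1VP16 arrays and 11.14 and 11.17 on the MN1 arrays, against 10.35 and 10.43 on the Gr1Mac arrays, so the 3 groups did not overlap in this mean. The 2 comparisons share the Gr1Mac arrays. In such bulk samples, fewer cells of a type and less RNA per cell cannot be told apart.

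**Figure D1:**
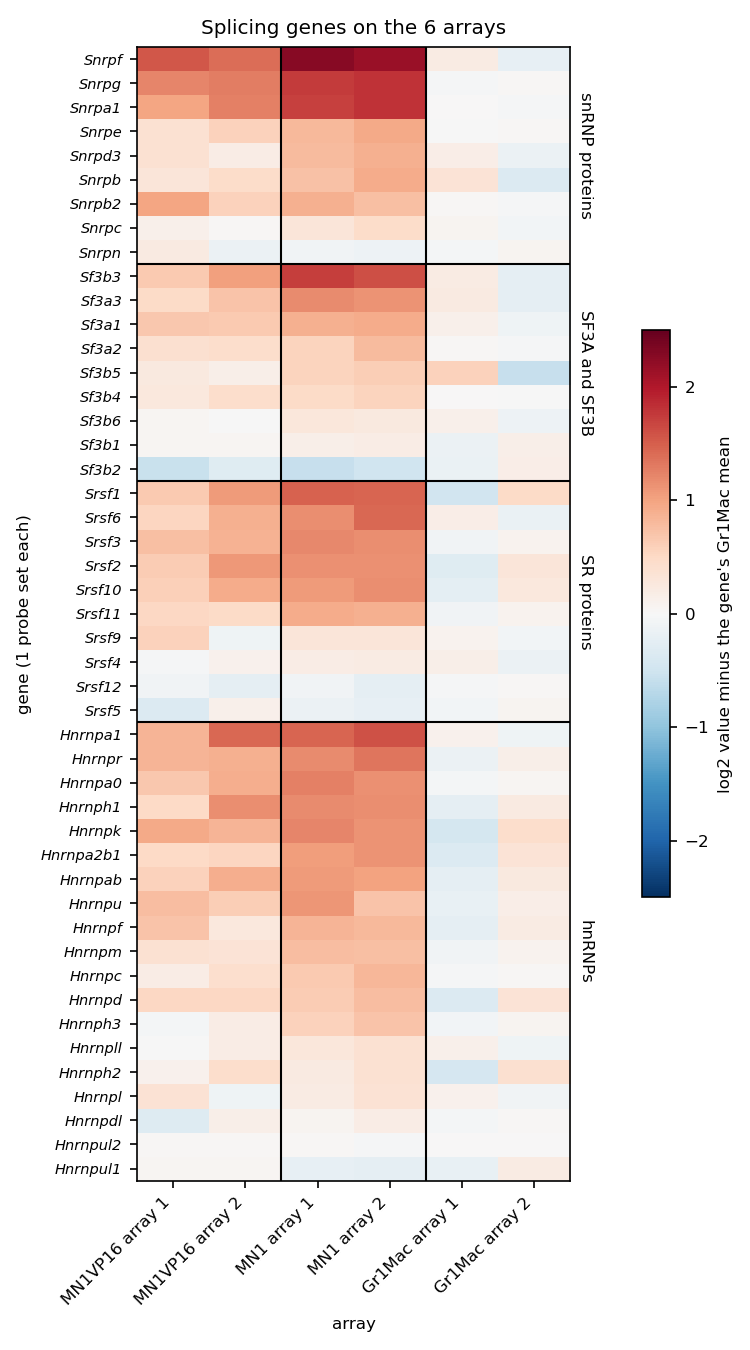
Each row is a splicing gene and each column an array; colour gives the log2 value minus the gene's mean over the 2 Gr1Mac arrays, with rows grouped by protein class and sorted within it by the MN1 difference. Red, a value above the Gr1Mac mean, is deepest on the MN1 arrays for Snrpf, Snrpg, Snrpa1 and Sf3b3, and paler on the MN1VP16 arrays.

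The count of 28 depended on having both MN1 arrays and fell without either one, as did the count over all genes. All 28 differences stayed positive. Their median was 1.12 log2 units without MN1 array 1 and 1.13 without MN1 array 2, against 1.13 with both. Hnrnpa0, Hnrnpa1, Hnrnpr, Sf3b3, Snrpa1, Snrpf, Snrpg and Srsf3 kept their call whichever MN1 array was left out, and Snrpe and Srsf6 kept theirs without MN1 array 1 but not without MN1 array 2. Without Gr1Mac array 1, 20 of the 28 calls remained, and without Gr1Mac array 2, 23 remained. The count of 6 in MN1VP16 was 1 without MN1VP16 array 1, 0 without MN1VP16 array 2, 1 with either one of the MN1 arrays left out, 3 without Gr1Mac array 1 and 0 without Gr1Mac array 2. Within the arrays high in Xist, the MN1 mean lay above Gr1Mac array 1 for 42 of the 47 genes (48.5% of all genes) with a median of 0.79, and within the arrays high in Y-linked genes, the MN1VP16 mean lay above Gr1Mac array 2 for 39 (47.4% of all genes) with a median of 0.42. Among arrays with dim control rows, MN1VP16 array 2 lay above the Gr1Mac mean for 41 of the 47 (49.7% of all genes) with a median of 0.47. With the split of the control rows as a block, 7 of the 28 calls in MN1 remained (Hnrnpa0, Hnrnpa1, Hnrnph1, Sf3b3, Snrpa1, Snrpf and Snrpg). Among all genes, 914 were then called higher in MN1, against 3147 without the block. The median difference of the 28 was 1.29 and their median SE 0.33 with the block, against 1.13 and 0.19 without it. Only 1 of the 6 calls in MN1VP16, Hnrnpa1, remained with that block. Of all the alternatives in which each could be measured, Snrpf and Snrpg kept their MN1VP16 call in 8 of 14, Snrpa1 in 7 of 13, Hnrnpa1 in 3 of 14, and Srsf3 and Hnrnpr in 1 of 14, the fit without the dimmest genes.

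The genes of the arrays did not share one median: over all genes it lay 0.26 log2 units higher in MN1, and 0.21 higher in MN1VP16, than in Gr1Mac. With each array centred on its own median, 3 splicing genes were higher and 0 lower in MN1VP16, beside 530 higher and 946 lower among all genes (666 and 384 uncentred), and 16 were higher and 1 lower in MN1, beside 2484 and 4003 among all genes (3147 and 2187 uncentred). The gene lower in MN1 was Sf3b2, at -0.8 log2 units (limma adjusted p = 0.0303). The median of the 47 genes was then 0.27 in MN1VP16 and 0.57 in MN1.

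The 3 largest differences between MN1 and Gr1Mac among the 47 genes were those of snRNP proteins. Snrpf, a protein of the Sm ring that all major spliceosomal snRNPs but U6 share, read 9.58 and 9.41 in MN1VP16 and 10.29 and 10.17 in MN1, against 8.23 and 7.81 in Gr1Mac. The 3 groups did not overlap. The difference from Gr1Mac was 1.48 ± 0.20 log2 units (SE) in MN1VP16, or 2.79-fold (95% interval 2.00 to 3.90, limma adjusted p = 0.0210), and 2.21 ± 0.20 in MN1, or 4.64-fold (3.32 to 6.48, adjusted p = 0.00156). Snrpg, another protein of the ring, read 12.52 and 12.56 in MN1VP16 and 13.04 and 13.10 in MN1, against 11.27 and 11.31 in Gr1Mac. Its arrays lay close together inside each group, and it was 2.37-fold higher in MN1VP16 (limma adjusted p = 0.0160) and 3.43-fold higher in MN1 (adjusted p = 0.00137). Both calls rested on 1 of its 2 probe sets, a set marked _s_at, whose probes can match more than 1 transcript or gene. The other set differed by 0.15 ± 0.26 log2 units (SE) in MN1VP16 and 0.51 ± 0.26 in MN1 and was not called (limma adjusted p = 0.817 and 0.213).

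Snrpa1, which encodes the U2 protein A′ and is described here because it was called in both groups, read 10.17 and 10.45 in MN1VP16 and 10.90 and 11 in MN1, against 9.2 and 9.17 in Gr1Mac. Again no group overlapped another. It was 2.18-fold higher in MN1VP16 (limma adjusted p = 0.0262) and 3.40-fold higher in MN1 (adjusted p = 0.00176). Snrpb2, Snrpd3 and Snrpe, which encode the U2 protein B″ and a pair of Sm proteins, were called in MN1 at 1.76-fold to 1.83-fold higher, and were not called in MN1VP16. All 3 MN1 calls were lost with the control row block. Those of Snrpb2 and Snrpd3 were also lost with the mean of all sets, and that of Snrpb2 with centred arrays. In MN1 the other sets of Snrpb2 differed by 0.58 and -0.42 log2 units, neither called. Those of Snrpd3 differed by 0.60, which was called, and 0.05, which was not. Snrpb, the Sm protein B, read 12.08 and 12.23 in MN1VP16 and 12.50 and 12.69 in MN1, against 12.12 and 11.42 in Gr1Mac. Its Gr1Mac arrays stood apart by more than the MN1VP16 arrays did, and MN1VP16 overlapped them; neither difference was called (limma adjusted p = 0.437 for MN1VP16 and 0.0573 for MN1).

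Snrpc, the U1 protein C, was not called in either group, at 0.07 ± 0.16 log2 units (SE) in MN1VP16 and 0.37 ± 0.16 in MN1. Snrpn, an imprinted Sm protein gene of neurons, read 5.31 and 4.95 in MN1VP16 and 5.01 and 4.97 in MN1, against 5.04 and 5.15 in Gr1Mac. All 6 readings lay under the background guide, so they set no level for it. In all, 3 of 9 snRNP genes were higher in MN1VP16 and 6 of 9 in MN1.

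In the SF3 complexes all of Sf3a1, Sf3a2 and Sf3a3, the trimer SF3A, were higher in MN1. Of the 6 Sf3b genes in the set, only Sf3b3 was higher in MN1. The rule takes genes by symbol and need not hold every SF3B subunit. Phf5a, counted below among the branch point factors, was 1.98-fold higher in MN1 (limma adjusted p = 0.00701). Sf3b3, a large scaffold protein of SF3B, read 10.03 and 10.39 in MN1VP16 and 11.10 and 10.98 in MN1, against 9.58 and 9.15 in Gr1Mac. It was 3.20-fold higher in MN1 (95% interval 2.21 to 4.64, limma adjusted p = 0.00374) and 1.80-fold in MN1VP16, where the call was missed (adjusted p = 0.0810). Sf3a3 read 9.78 and 10.02 in MN1VP16 and 10.49 and 10.43 in MN1, against 9.53 and 9.08 in Gr1Mac, and was 2.23-fold higher in MN1 (limma adjusted p = 0.00921). Sf3a1 read 9.2 and 9.17 in MN1VP16 and 9.40 and 9.44 in MN1, against 8.64 and 8.41 in Gr1Mac, and was 1.86-fold higher in MN1 (limma adjusted p = 0.00911). For all 3 genes the groups followed the same order without overlap, MN1 above MN1VP16 above Gr1Mac. Sf3a2 was 1.61-fold higher in MN1.

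Sf3b1, the subunit that grips the branch point helix, was called in neither group. It read 12.42 and 12.43 in MN1VP16 and 12.52 and 12.56 in MN1, against 12.24 and 12.52 in Gr1Mac. Its differences from Gr1Mac were 0.05 in MN1VP16 (95% interval -0.36 to 0.45) and 0.16 in MN1 (-0.24 to 0.57), and Gr1Mac array 2 lay as high as MN1 array 1. Sf3b2, a subunit next to Sf3b4 in the complex, had the most negative difference of the 47 genes, -0.44 ± 0.19 log2 units (SE) in MN1VP16 and -0.54 ± 0.19 in MN1. It was not called (limma adjusted p = 0.229 and 0.0799), although both of its MN1VP16 arrays, at 10.97 and 11.22, and both MN1 arrays, at 10.95 and 11.03, lay below the Gr1Mac arrays at 11.37 and 11.69. Sf3b4, Sf3b5 and Sf3b6 were not called, with differences of 0.26 to 0.58 log2 units in MN1; for Sf3b4 the limma adjusted p was 0.0505, and the Gr1Mac arrays of Sf3b5 read 11.26 and 10.11. None of the 9 SF3 genes was called in MN1VP16 by limma, while 4 of the 9 were higher in it at an unadjusted p under 0.05.

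**Figure D2:**
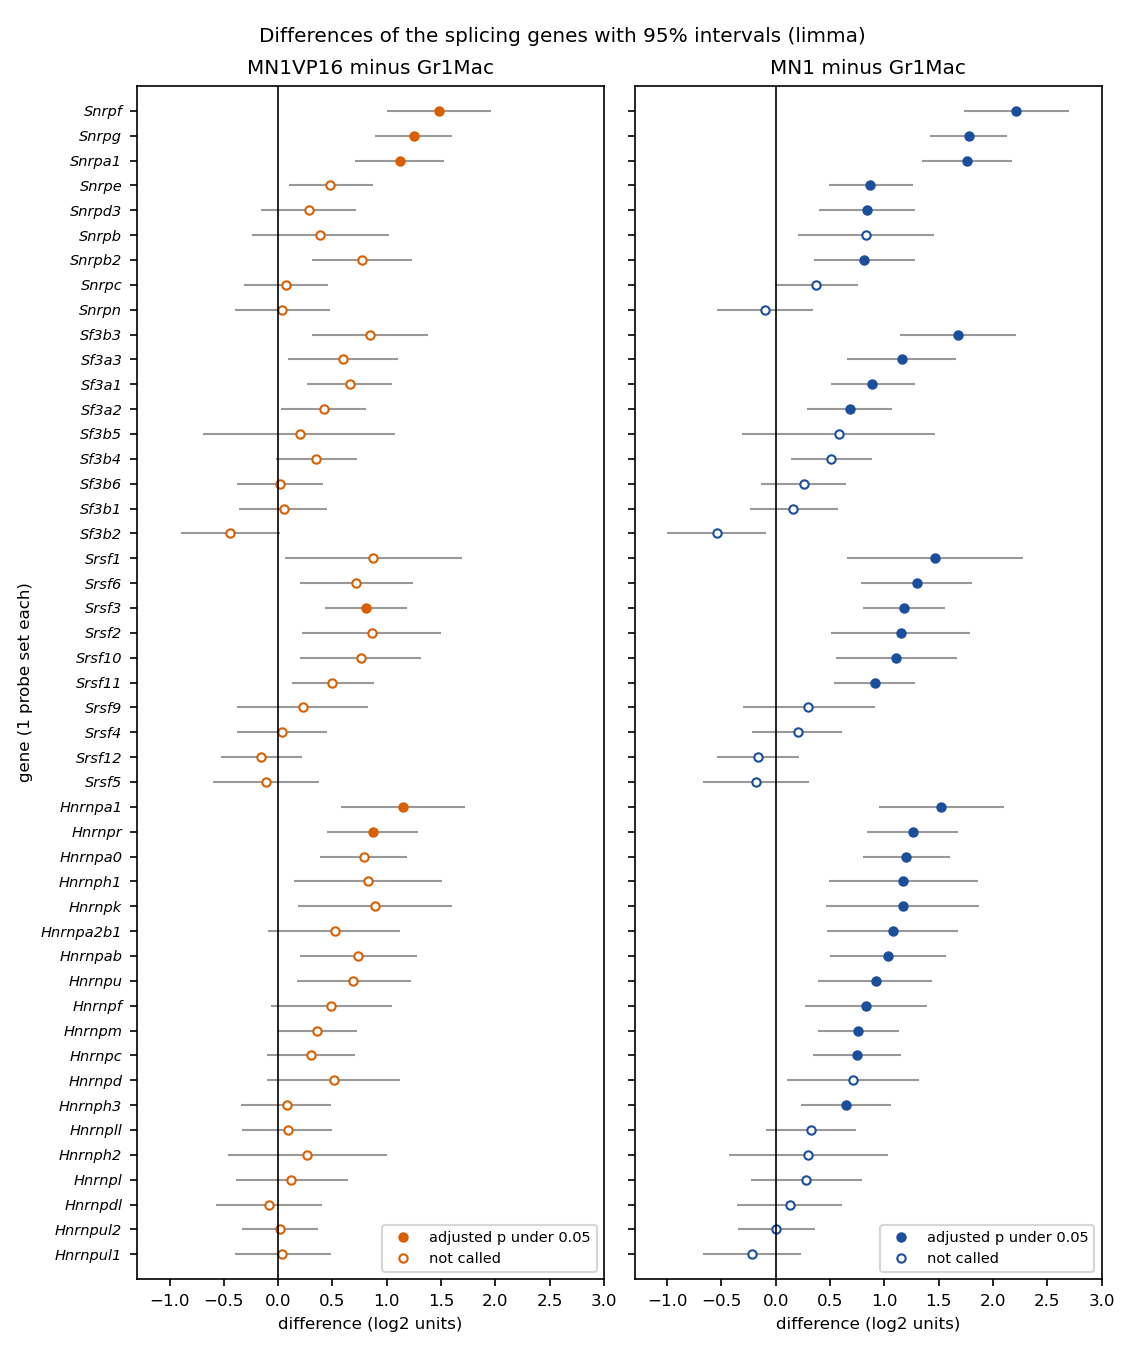
Points give each gene's difference from Gr1Mac in log2 units, MN1VP16 on the left and MN1 on the right, and lines give 95% intervals from limma; filled points passed an adjusted p under 0.05. All filled points, 6 in MN1VP16 and 28 in MN1, lie to the right of 0.

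Of the 10 SR protein genes 1 was higher in MN1VP16 and 6 were higher in MN1. Srsf1, the founding member, which controls 5′ splice site choice, read 11.95 and 12.36 in MN1VP16 and 12.77 and 12.74 in MN1, against 10.81 and 11.76 in Gr1Mac. Its Gr1Mac arrays stood far apart. The 2.77-fold difference of MN1 had a 95% interval of 1.58 to 4.87 (limma adjusted p = 0.0208), and that of MN1VP16 was not called (1.83-fold, adjusted p = 0.186). Srsf6 read 11.33 and 11.68 in MN1VP16 and 11.96 and 12.22 in MN1, against 10.95 and 10.63 in Gr1Mac. It was 2.45-fold higher in MN1 (limma adjusted p = 0.00710) and was not called in MN1VP16 (1.64-fold, adjusted p = 0.110).

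Srsf3, a small SR protein that also takes part in mRNA export, was the SR gene called in both groups. It read 11.46 and 11.56 in MN1VP16 and 11.90 and 11.86 in MN1, against 10.61 and 10.79 in Gr1Mac. It was 1.75-fold higher in MN1VP16 (limma adjusted p = 0.0422) and 2.26-fold in MN1 (adjusted p = 0.00381). The MN1VP16 call was lost under 13 of 14 alternatives (adjusted p up to 0.321), the MN1 call under 1. Srsf2 read 11.17 and 11.63 in MN1VP16 and 11.69 and 11.69 in MN1, against 10.24 and 10.84 in Gr1Mac, and was 2.22-fold higher in MN1 (limma adjusted p = 0.0212). That call rested on 1 of its 4 probe sets, a set marked _s_at. The other 3 differed by 0.71, -0.07 and -0.03 log2 units and were not called, and the gene's difference was -0.07 when sets marked _x_at, _s_at or _a_at were left out.

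Srsf10 and Srsf11 were also higher in MN1, and the 6 called SR genes lay between 1.88-fold and 2.77-fold. Srsf4, Srsf5, Srsf9 and Srsf12 were not called in either group, with MN1 differences of -0.18 to 0.30 log2 units. Srsf12 read 3.06 to 3.31 on all 6 arrays, under the background guide. Srsf5, which read 12 and 12.46 in MN1VP16 and 12.19 and 12.13 in MN1, against 12.27 and 12.41 in Gr1Mac, was not called (limma adjusted p = 0.823 for MN1VP16 and 0.57 for MN1).

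Among the hnRNPs, 2 of 19 were higher in MN1VP16 and 12 of 19 in MN1. Hnrnpa1, an abundant repressor of exon inclusion, read 10.05 and 10.64 in MN1VP16 and 10.66 and 10.79 in MN1, against 9.31 and 9.09 in Gr1Mac. It was 2.22-fold higher in MN1VP16 (95% interval 1.49 to 3.30, limma adjusted p = 0.0480) and 2.87-fold higher in MN1 (1.93 to 4.28, adjusted p = 0.00588). MN1VP16 array 2 lay next to the MN1 arrays for this gene. Hnrnpr read 11.37 and 11.41 in MN1VP16 and 11.71 and 11.85 in MN1, against 10.37 and 10.66 in Gr1Mac. It was 1.83-fold higher in MN1VP16 (limma adjusted p = 0.0443) and 2.39-fold higher in MN1 (adjusted p = 0.00413). The MN1VP16 call was lost under 13 of 14 alternatives (adjusted p up to 0.437), and the MN1 call under 2.

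Hnrnpa2b1, a close relative of Hnrnpa1, read 12.56 and 12.61 in MN1VP16 and 13.11 and 13.19 in MN1, against 11.72 and 12.42 in Gr1Mac. It was 2.11-fold higher in MN1 (limma adjusted p = 0.0222). This call was lost without sets marked _x_at, _s_at or _a_at, with centred arrays and with the control row block. Hnrnpk, which binds runs of C and whose loss is known in human acute myeloid leukaemia, read 13.04 and 12.95 in MN1VP16 and 13.32 and 13.22 in MN1, against 11.67 and 12.53 in Gr1Mac. Gr1Mac array 1 was the low array of both genes. Hnrnpk was 2.25-fold higher in MN1 (limma adjusted p = 0.0281) and was not called in MN1VP16 (1.85-fold, adjusted p = 0.133). That MN1 difference, 1.17 log2 units, is of its brightest set, marked _a_at; its other 3 sets differed by 0.52, 0.53 and 0.01, and the mean of all sets by 0.56. The call was lost without marked sets, with centred arrays, with the control row block and with either one of the MN1 arrays left out. Hnrnpu, a nuclear matrix protein that also binds chromatin, read 11.61 and 11.45 in MN1VP16 and 11.95 and 11.56 in MN1, against 10.66 and 11.01 in Gr1Mac, and was 1.89-fold higher in MN1 (limma adjusted p = 0.0230). Its MN1VP16 and MN1 arrays overlapped. The MN1 call of Hnrnpu was lost with centred arrays and with the control row block.

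The remaining called hnRNPs, Hnrnpa0, Hnrnpab, Hnrnpc, Hnrnpf, Hnrnph1, Hnrnph3 and Hnrnpm, were higher in MN1 within the class range of 1.57-fold to 2.87-fold. With centred arrays only Hnrnpa0 of these kept its call, and with the control row block only Hnrnpa0 and Hnrnph1 did. The Hnrnpc call rested on 1 of its 3 probe sets, marked _a_at. Its other sets differed by -0.07 and -0.50 log2 units and were not called, the latter under the background guide. Hnrnpd, Hnrnpdl, Hnrnph2, Hnrnpl, Hnrnpll, Hnrnpul1 and Hnrnpul2 were called in neither group, and their MN1 differences ran from -0.22 to 0.71 log2 units. Hnrnpul2 had readings of 10.16 to 10.21 on every array, and its interval against Gr1Mac was -0.33 to 0.37 in MN1VP16 and -0.35 to 0.36 in MN1.

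Between the transduced groups no splicing gene passed the test. Limma called 0 of 47 higher and 0 lower in MN1VP16 than in MN1, where 1.15% and 2.7% of all genes were called, and at an unadjusted p under 0.05 it had 0 higher and 13 lower, against 9.15% and 13.3% of all genes. Both MN1VP16 arrays lay below both MN1 arrays for 34 of the 47 genes (29.2% of all genes) and above them for 1 (30.5%). The median difference was -0.3 log2 units, where the median of all genes was 0.03. Sf3b3 had the most negative difference, -0.83 log2 units (95% interval -1.37 to -0.30, limma adjusted p = 0.0974). Snrpf differed by -0.73 (-1.22 to -0.25, adjusted p = 0.101), Snrpa1 by -0.64 (-1.05 to -0.23, adjusted p = 0.0956) and Snrpg by -0.53 (-0.89 to -0.18, adjusted p = 0.104).

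These p-values miss the threshold and do not show that the 2 groups have the same levels. Both MN1VP16 arrays were high in Y-linked genes and both MN1 arrays in Xist, so the groups could be compared only across these patterns; with the pattern as a block, which rests on the Gr1Mac arrays, limma also called 0 of the 47. Against the MN1 arrays, which like it had bright control rows, MN1VP16 array 1 was lower for 40 of the 47 genes and higher for 7, with a median of -0.38, while 52.5% of all genes were higher. In 26 of the 47 genes (55.3%) the arrays fell without overlap in the order MN1 above MN1VP16 above Gr1Mac, against 14.1% of all genes. This order was found in 5 of 9 snRNP genes, 5 of 9 SF3 genes, 6 of 10 SR genes and 10 of 19 hnRNPs.

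Most of the genes were read by several probe sets, 139 in all, with 1 set for 12 genes and up to 7 for the others. Fitted as separate features, 65 of the 139 sets were higher and 1 lower in MN1 than in Gr1Mac (15% and 11.6% of all single-gene sets), and 14 were higher and 0 lower in MN1VP16 (3.12% and 2.31%). Between MN1VP16 and MN1, 0 sets were higher and 1 was lower, where 0.913% and 2.34% of all sets were called. Every set of Hnrnpa1, Hnrnpu, Sf3a3, Sf3b3 and Snrpa1 was called higher in MN1. The dimmest Hnrnpa1 set read 3.38 to 5.21 on the arrays, under the background guide, so it adds little to the agreement among sets of that gene. Among the 35 genes with several sets, another 20 had some sets called higher and 10 had none. No gene had sets called in both directions.

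Snrpb and Hnrnpdl were called in MN1 through other sets than their brightest, Snrpb by a set with a difference of 1.07 ± 0.26 log2 units (SE, limma adjusted p = 0.0273). The set that was lower belonged to Snrpc and read 4.33 to 4.99, under the background guide. A set of Srsf1 read 8.74 and 8.81 in MN1VP16, against 9.64 and 9.54 in MN1, and was the only one of the 139 called between the transduced groups. Its difference was -0.82 ± 0.15 log2 units (SE, limma adjusted p = 0.0470), and the brightest Srsf1 set differed by -0.60 ± 0.33 (adjusted p = 0.379). Of the probe sets that represent the genes, 24 of 47 carry the marks _x_at, _s_at or _a_at, given to sets whose probes can match more than 1 transcript or gene. Without any such set, 41 of the genes could be measured, of which 16 were higher in MN1 and 1 in MN1VP16, Snrpf. Over all genes, 2584 were then called higher in MN1, against 3147 with every set in use. Among the 16, Hnrnpa1 was then read only by its dimmest set, which lay under the background guide.

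**Figure D3:**
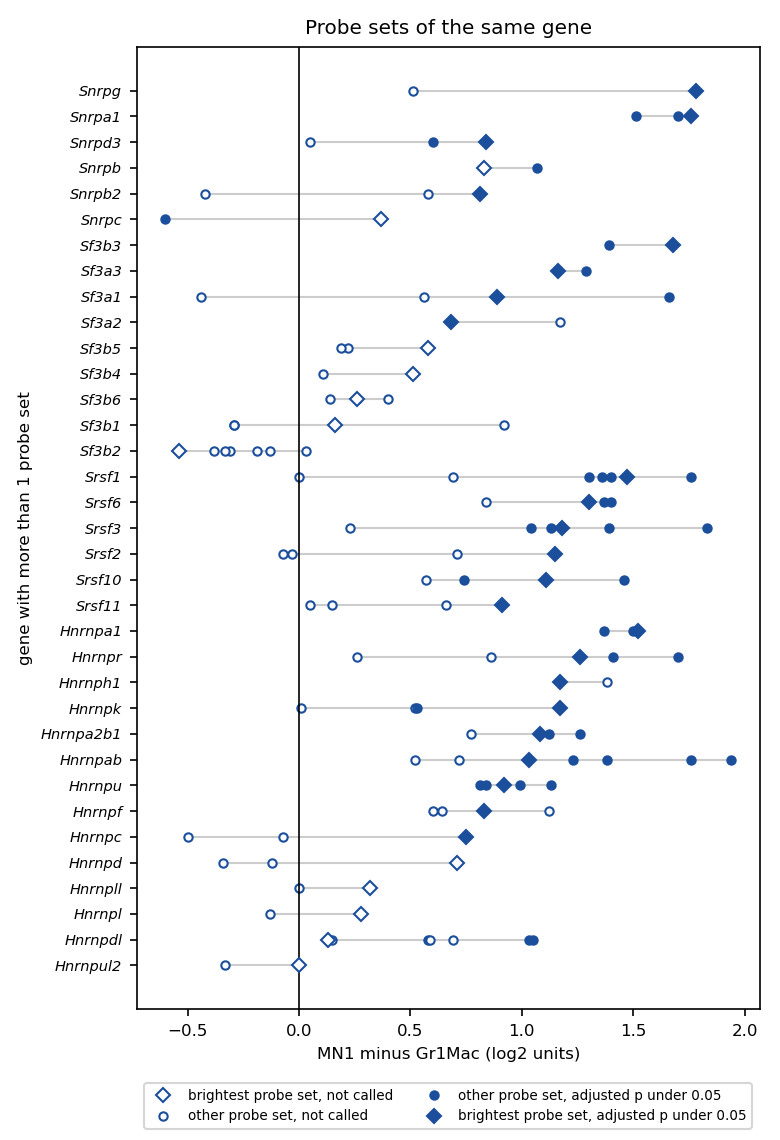
For the genes with more than 1 probe set, each mark is a set's difference between MN1 and Gr1Mac in log2 units; diamonds are the brightest set, which represents the gene, circles the other sets, and filled marks passed an adjusted p under 0.05. The sets of Hnrnpa1, Snrpa1, Sf3b3 and Hnrnpu lie close together, while those of Srsf1, Srsf2 and Hnrnpk spread down to about 0. The Srsf1 set near 0 read 3.52 to 3.81 on the arrays, under the background guide. The dimmest Hnrnpa1 set, at 3.38 to 5.21, also lay under it.

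Other parts of the splicing machinery were counted in 155 further genes. In MN1, 69 of them were higher and 5 lower than in Gr1Mac, and in MN1VP16, 8 were higher and 0 lower. The share higher was 44.5% in MN1, against 17.3% of all genes (12% of all genes were lower), while in MN1VP16 it was 5.16%, near the 3.66% of all genes (2.11% lower). Their median difference was 0.27 log2 units in MN1VP16 and 0.57 in MN1. The counts in MN1 were 35 higher and 2 lower without MN1 array 1, 27 and 0 without MN1 array 2, and 2 lower without Gr1Mac array 1. In MN1VP16 the count higher was 2 with either one of the MN1 arrays left out, 3 without MN1VP16 array 1, and 0 without MN1VP16 array 2 or Gr1Mac array 2.

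Factors that build snRNPs had the largest share called in MN1 of the 8 lists. Of 18 measured, 14 were higher in MN1 (17.3% of all genes) and 1 in MN1VP16 (3.66%). In either group 0 were lower (12% of all genes in MN1 and 2.11% in MN1VP16). Prmt5, the methyltransferase that modifies Sm proteins before the ring forms, read 8.20 and 8.67 in MN1VP16 and 9.56 and 9.60 in MN1, against 6.63 and 5.29 in Gr1Mac. Gr1Mac array 2 lay under the background guide, and the Gr1Mac arrays stood far apart. With that array set at the guide, Prmt5 was at least 4.61-fold higher in MN1VP16 (limma adjusted p = 0.0341) and at least 10.2-fold higher in MN1 (adjusted p = 0.00298). Gemin8, a subunit of the SMN complex, was at least 4.25-fold higher in MN1 (limma adjusted p = 0.0038), a bound because its Gr1Mac mean lay under the background guide. Smn1 itself, at 0.11 ± 0.15 log2 units (SE) in MN1, was not called.

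In the U4/U6.U5 tri-snRNP and catalytic group, 3 of 34 were higher in MN1VP16 (3.66% of all genes). In MN1, 14 were higher and 1 lower (17.3% and 12% of all genes). Prpf19, a ubiquitin ligase of the active spliceosome, was 2.46-fold higher in MN1VP16 (limma adjusted p = 0.0183) and 4.35-fold in MN1 (adjusted p = 0.00125). Prpf31, which joins U4/U6 to U5, was 1.91-fold higher in MN1VP16 and 3.15-fold in MN1. Slu7, a factor of the second catalytic step, was 1.73-fold lower in MN1 (limma adjusted p = 0.0192).

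U1-linked and branch point factors were higher in 8 of 19 genes in MN1 (17.3% of all genes) and 0 in MN1VP16 (3.66%). They were led in MN1 by Luc7l3 at 2.61-fold and Htatsf1 at 2.49-fold, and also held Phf5a at 1.98-fold. U2af1, which reads the 3′ end of introns, was not called. The LSm list, which holds proteins of the U6 ring and other LSm proteins, had 1 of 12 genes higher in MN1VP16 (3.66% of all genes). In MN1, 5 were higher (Lsm1, Lsm2, Lsm4, Lsm6 and Lsm7), beside 17.3% of all genes. Lsm2 was at least 1.22-fold higher in MN1VP16 and at least 1.57-fold in MN1, both against a Gr1Mac mean under the guide, and Lsm7 was 2.20-fold higher in MN1. Of 7 proteins of the minor spliceosome, 2 were higher in MN1 and 0 in MN1VP16 (17.3% and 3.66% of all genes). Snrnp25 was 3.04-fold and Snrnp48 2.62-fold higher in MN1.

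SR protein kinases and phosphatases were higher in 1 of 11 in MN1VP16 and 3 in MN1, with 1 lower in MN1. Over all genes 3.66% were higher in MN1VP16, and 17.3% were higher and 12% lower in MN1. The median difference of this list was -0.15 log2 units in MN1VP16 and -0.04 in MN1, against 0 and -0.06 over all genes. The kinase Prpf4b, also counted in the tri-snRNP group, was 1.85-fold higher in MN1VP16 (limma adjusted p = 0.0296) and 2.76-fold in MN1, the phosphatase Ppm1g was 2.56-fold higher in MN1, and the kinase Dyrk1a was 1.56-fold lower in MN1. Srpk1, Srpk2, Srpk3, Clk1, Clk2, Clk3 and Clk4, kinases of SR proteins, were not called. In MN1 they differed from Gr1Mac by 0.59, -1.22 and 0.23 log2 units for the Srpk genes, and by -0.38 to -0.04 for the Clk genes. Genes of the exon junction complex and mRNA export were higher in 8 of 14 in MN1 and 0 in MN1VP16, with Thoc1 at 3.29-fold and Ddx39b at 2.33-fold.

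Among other splicing regulators, 3 of 41 were higher in MN1VP16 (3.66% of all genes). In MN1, 16 were higher and 3 lower (17.3% and 12% of all genes). Sfpq, a nuclear RNA-binding protein, and Tra2b, an activator of exon inclusion, were 2.33-fold and 2.03-fold higher in MN1VP16. Syncrip, an hnRNP Q protein, was 3.15-fold higher in MN1. The regulators lower in MN1 were Celf2, 2.10-fold, Ptbp2, 1.78-fold, and Mbnl2, with a difference of -0.56 log2 units. Esrp2, known as a regulator of epithelial splicing, read 5.4 and 4.98 in MN1VP16 and 7.79 and 7.72 in MN1, against 4.88 and 5.37 in Gr1Mac. It was the only one of the 155 genes called between the transduced groups, at least 3.77-fold lower in MN1VP16 than in MN1 (limma adjusted p = 0.0154), and at least 3.77-fold higher in MN1 than in Gr1Mac (adjusted p = 0.00157). Without MN1 array 2, 0 of the 155 were called between the transduced groups, and without MN1 array 1, 2 were called lower in MN1VP16.

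**Figure D4:**
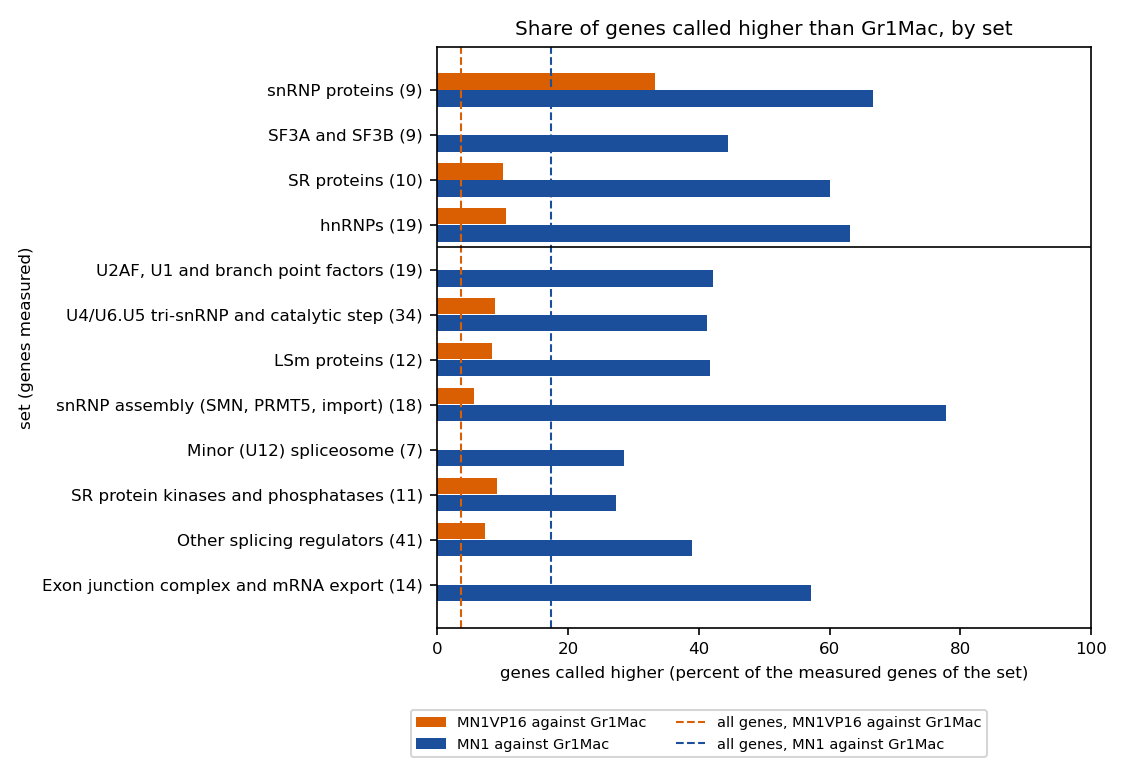
Bars give the percent of the measured genes of each set that limma called higher than Gr1Mac, in MN1VP16 and in MN1, with the 4 classes of the 47 genes above the line and the other splicing gene sets below it; dashed lines mark the share over all genes, 3.66% for MN1VP16 and 17.3% for MN1. In MN1 the bar of snRNP assembly factors, 14 of 18 genes, is the longest of the 12.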

How the data were processed

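Expression was measured on 6 Affymetrix Mouse430_2 arrays, 2 for each of MN1VP16, MN1 and Gr1Mac. Total RNA was prepared with TRIZOL and labelled from the 3′ end with an IVT kit, per the labels' protocols. The deposited values were log2 expression values per probe set that the authors made with RMA, per the submitters' processing notes; its version is not given in the sources used here. The method corrects background, sets all arrays to a common distribution and combines the probes of each set. Differences of dim genes are therefore understated, and a change of total RNA per cell is removed. Array medians lay between 5.36 and 5.43.

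Of 45101 rows, 64 were controls, and of the 45037 ordinary probe sets the platform annotation gave exactly 1 symbol for 34945, several for 932 and none for 9160; only the first kind was used for genes. Symbols were checked by gene number in a RefSeq table (GRCm38.p6), which matched 34741 and changed 0. Each of 18193 genes was represented by its brightest probe set on average over the 6 arrays, with no filter on dim genes, so all 47 splicing genes were tested.

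Limma 3.58.1 in R 4.3.3 (lmFit, eBayes) was fitted to all 6 arrays with group as the only term (3 residual and 3.03 prior degrees of freedom), and p-values were adjusted over all genes of a contrast by the Benjamini-Hochberg method. Called genes had an adjusted p under 0.05. The fit was tested on simulated data. Folds are differences taken out of log2; where an array of the dimmer group read at or under 5.84, a fold is a bound with that array set to this level. The number of arrays limits the precision, and the p-values rest on the spread between arrays alone, which could be technical as nothing states separate mice.

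The 47 genes and all lists were chosen with earlier results of these data known. The other lists held 155 measured genes of splicing, and markers of myeloid, progenitor, erythroid, B, and T and NK cells, of proliferation and of sex. Values on every array are given for 11 genes set out by name (2 more had no probe set), for the largest called differences of each class, and for any gene called between MN1VP16 and MN1; Snrpa1, Sf3b2, Srsf5 and Hnrnpul2 were added after their values were seen. Of the other lists, the largest called differences are named. Probe sets that match a splicing gene and another symbol stayed out of the counts. Alternatives used the mean of all probe sets, no sets marked _x_at, _s_at or _a_at, no dimmest 40% of genes, an intensity trend, centred arrays, blocks for replicate number, for the Xist and Y-linked pattern and for the control rows, and the removal of each array. The replicate numbers did not pair the arrays (correlations of deviations -0.0461, -0.0485 and 0.0804).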

Additional observations from a re-analysis of the deposited data

Results flagged for a closer look

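Probe sets annotated to a splicing gene together with another symbol were outside the counts above. Of these 16 sets, both MN1VP16 arrays lay above both Gr1Mac arrays in 9 and below them in 2 (22.7% and 26.2% of all single-gene sets), with differences of -0.30 to 1.35 log2 units. Both MN1 arrays lay above both Gr1Mac arrays in 10 and below them in 3 (28.9% and 36.4% of all single-gene sets), with differences of -0.35 to 2.47. Since each set can read more than 1 gene, no gene is named from them, and these counts were not tested.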

How the results depend on the processing

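Of the 47 splicing genes, 28 were higher in MN1 than in Gr1Mac. The count higher was 16 once sets marked _x_at, _s_at or _a_at were dropped (here without marked sets). It was 16 with centred arrays, where 1 gene outside the 28, Sf3b2, was lower. It was 7 with the control row block, and 8 to 28 with 1 array left out. Of the 6 higher in MN1VP16, 2 kept their call with the mean of all probe sets (Snrpa1 and Snrpf), and 1 without marked sets. With the intensity trend, centred arrays, the replicate block or the Xist and Y-linked block, 3 kept it. Only 1 did with the control row block, and fewer than 6 with any 1 array left out. The median difference in MN1 was 0.60 with the mean of all probe sets, 0.52 without marked sets and 0.57 with centred arrays (0.74 to 0.83 with 1 array left out); in MN1VP16 it was 0.36, 0.28 and 0.27 (0.42 to 0.49). For MN1VP16 minus MN1 it was -0.38 to -0.30 with 1 array left out. Of the 155 other genes, those higher in MN1 were 11 with the control row block and 27 to 67 with 1 array left out, and those lower were 3 with the trend, 15 with centred arrays, 0 with the control row block and 0 to 4 with 1 array left out. Those higher in MN1VP16 were 5 with the trend, 4 with centred arrays, 4 with the replicate block, 3 with the control row block and 0 to 10 with 1 array left out, and 1 was lower with centred arrays. Between MN1VP16 and MN1, 1 was higher without marked sets, and those lower were 5 with the mean of all probe sets, 4 without marked sets, 2 without the dimmest genes, 2 with the trend, 3 with centred arrays, 0 with the Xist and Y-linked block and 0 to 2 with 1 array left out. Srsf2 in MN1 turned to -0.07 without marked sets, where another probe set represents it. Where a probe set or array was left out, fewer sets or arrays were tested; the cause of the other changes was not tested. The replicate block, with no pairing in the data, gave 27 of 47 in MN1 and 0 between MN1VP16 and MN1. With 2 arrays in a group, leaving 1 out assumes that the lone array varies like the others, and genes under 5.84 log2 units cannot be told from background.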
